A study of Mus musculus with 6 samples.

Results

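The 7 transcription factors described here direct cells into and along the oligodendrocyte lineage: Sox8, Sox9 and Sox10 of the SoxE group, the basic helix-loop-helix factors Olig1 and Olig2, and the homeodomain factors Nkx2-2 and Nkx6-2. They were found as array spots for genes that carry one of these names, or whose accession maps to one. This gave 21 spots of 12 probes for 7 of the 28786 gene names on the array, and all 7 were among the 18062 genes tested. The study set Dnmt3a-null (KO) against wild-type (WT) neural stem cells that had been cultured from the subventricular zone, taken from mice aged 14 to 21 days. It used 6 arrays, which read 2 colours, and hybridised KO RNA in one dye together with WT RNA in the other. On 2 arrays the KO and WT cells were differentiating, after 2 days of replating with mitogen and 3 days without. On 4 arrays the KO and WT cells were proliferating in FGF-2 and EGF at 10 ng/ml each. How the null allele was made, and the sex and number of the mice, are not given in the sources used here. Arrays are labelled as biological replicates, and p-values measure the spread between these arrays.

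Oligodendrocytes, the myelin-forming glia of the brain, arise from neural stem cells through a precursor stage. Olig2 is needed to form the precursors, Nkx2-2 acts at the step from precursor to maturing oligodendrocyte, and Sox10, which depends on Olig2 and Sox9, switches on genes of the myelin sheath together with Sox8. Olig1 and Nkx6-2 act later, in maturation and in the organisation of myelin, and Sox9 also serves neural stem cells and astrocytes. Dnmt3a is an enzyme that adds methyl groups to cytosines that carry none, mostly those followed by guanine (CpG). In RNA from whole cultures, fewer cells of a type and less RNA per cell cannot be told apart.

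Promoters of 3 of the factors are shown because cytosines in CpG are what Dnmt3a acts on: 2 factors with KO over WT ratios well above 0 in differentiating cells and 1 with ratios below 0. Each window runs from 250 bases before the start of the gene to 50 bases after it, 5′ to 3′ on the strand of the gene, with every CpG in capitals. The sequences are RefSeq's on build GRCm38.p6, and 4 of the 7 factors matched an entry. Sox9, Sox10 and Olig1 had no entry, and Sox10 was the 1 factor that passed in differentiating cells. The differentiating ratios of the 3 printed factors did not pass in the main fit.
Nkx2-2, chr2:147186353-147186652, minus strand: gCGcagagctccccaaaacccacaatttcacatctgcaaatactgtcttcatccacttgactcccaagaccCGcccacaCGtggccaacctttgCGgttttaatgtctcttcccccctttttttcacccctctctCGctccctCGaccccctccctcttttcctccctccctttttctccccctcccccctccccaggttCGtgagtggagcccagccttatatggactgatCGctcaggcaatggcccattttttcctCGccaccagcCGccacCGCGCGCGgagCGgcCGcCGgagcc
Nkx6-2, chr7:139582748-139583047, minus strand: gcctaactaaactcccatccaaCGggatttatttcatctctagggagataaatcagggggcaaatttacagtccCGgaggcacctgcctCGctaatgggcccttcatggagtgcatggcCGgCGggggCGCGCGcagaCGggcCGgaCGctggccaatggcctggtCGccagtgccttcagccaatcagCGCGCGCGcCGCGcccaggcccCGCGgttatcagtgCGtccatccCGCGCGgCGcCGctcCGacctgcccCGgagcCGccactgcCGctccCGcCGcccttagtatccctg
Olig2, chr16:91225300-91225599, plus strand: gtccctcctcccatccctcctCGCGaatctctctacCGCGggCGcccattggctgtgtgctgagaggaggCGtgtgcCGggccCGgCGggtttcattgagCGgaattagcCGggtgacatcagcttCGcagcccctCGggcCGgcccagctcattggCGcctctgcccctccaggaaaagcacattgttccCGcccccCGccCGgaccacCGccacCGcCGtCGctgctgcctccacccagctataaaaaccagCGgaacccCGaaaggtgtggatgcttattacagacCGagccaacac
The Nkx2-2 window held 17 CpG, the Nkx6-2 window 32 and the Olig2 window 25, while the Sox8 window, not printed, held 21. The median over 32851 windows of the same length was 7 CpG. Fewer CpG than in the Nkx2-2, Nkx6-2, Olig2 and Sox8 windows were found in 68.6%, 90.5%, 81.6% and 75.2% of all windows. All 4 windows thus held more CpG than the median window, and the Nkx2-2 window fewer than the upper quartile of 20. The E-box CANNTG, the motif that Olig proteins bind in some of its forms and which reads alike on both strands, occurred 3 times in the Nkx2-2 window, once in the Nkx6-2 and Sox8 windows and 0 times in the Olig2 window, and in 72.3% of all windows. The Sox motif ACAAAG was in 0 of the 4 windows on either strand and in 18.7% of all windows, and ACAATG was found 1 time, in the Olig2 window, and in 12.6% of all windows. Methylation was not measured on these arrays.

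Between 52.3% and 59.1% of gene spots per channel were well above background, and the probe taken for each factor was well above background in all 12 channels, with 0 saturated. Log2 ratios are KO over WT after background correction and loess, and levels are log2 normalized signals of a channel, which cannot be compared between probes. Signal of Dnmt3a was lower in KO cells on 6 of 6 arrays: the log2 ratio of its brightest probe was -1.38 ± 0.14 in differentiating cells (SD, n = 2; limma, adjusted p = 0.0154) and -0.96 ± 0.22 in proliferating cells (SD, n = 4; adjusted p = 0.0219), and whether that probe lies in the deleted part is not known. The Dnmt3a calls ended without either differentiating array in both conditions, and in proliferating cells also without proliferating replicate 2, 3 or 4 (adjusted p = 0.0532 to 0.310 in all). The stem cell markers Nes, Sox2, Vim and Fabp7 were well above background in every channel, and Prom1 in all but 2 of the 4 proliferating WT channels. Prom1 was higher in KO on all 6 arrays, with a log2 ratio of 1.93 in differentiating cells (adjusted p = 0.0220) and 0.93 in proliferating cells (adjusted p = 0.0785). Proliferating replicates 3 and 4 stood apart in sex-linked genes. Eif2s3y, on the Y chromosome, had log2 ratios of 4.22 and 5.56 there, against -0.81 to 0.09 on the other arrays. Xist, on the X chromosome, had -1.41 and -2.28 there, against -0.07 to 0.08 on the other arrays. Whether KO and WT cells differed in sex on these 2 arrays was not tested. The calls for the factors are therefore also given without these replicates. Slide 2 held both differentiating arrays and slide 1 all proliferating ones, so slide and condition cannot be told apart; KO and WT shared every array.

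Sox10 RNA was higher in KO than in WT cells in both conditions, and Nkx2-2 RNA was higher in proliferating KO cells, while the other 5 factors passed in neither condition. In differentiating cells 1 of the 7 factors passed an adjusted p of 0.05, Sox10, and it was higher in KO. Among all genes tested 3.08% passed there, 2.18% in the higher direction. In proliferating cells 2 of 7 passed, Sox10 and Nkx2-2, both higher in KO, against 0.952% of all genes and 0.615% in the higher direction. The 172 genes that passed in proliferating cells were 111 higher and 61 lower in KO, and with median centring in place of loess 105 higher and 30 lower. The median log2 ratio of the 7 factors was -0.02 in differentiating and 0.10 in proliferating cells, beside -0.007 and -0.006 over all genes. Without proliferating replicates 3 and 4, Sox10 and Nkx2-2 again passed in proliferating cells (log2 ratios 2.24 and 1.47, limma, adjusted p = 0.0203 and 0.0463). In differentiating cells 3 factors then passed, Sox10, Nkx2-2 and Nkx6-2. Calls among all 18062 genes rose as well, from 557 to 970 in differentiating cells and from 172 to 214 in proliferating cells.

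**Figure D1:**
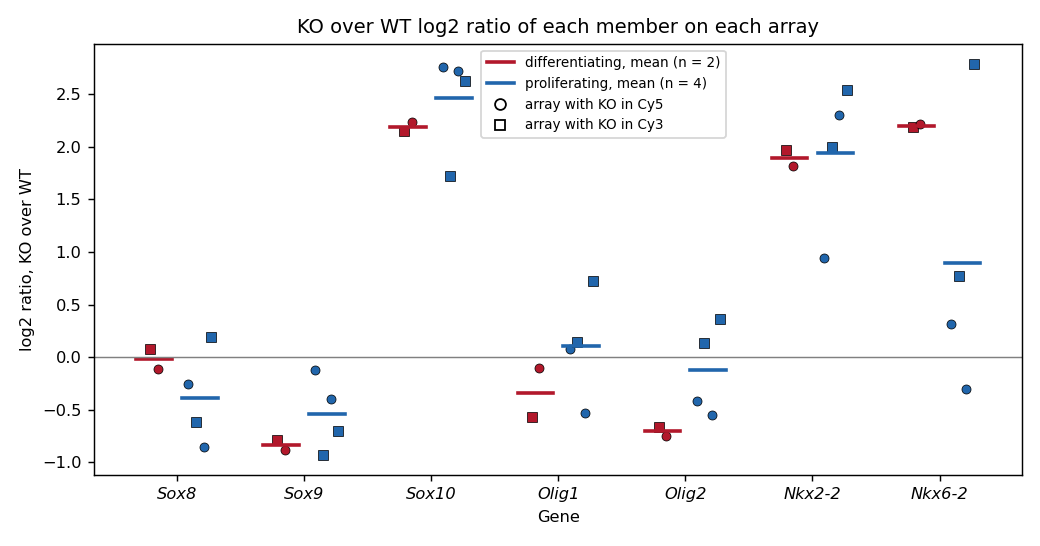
Log2 KO over WT ratio (y axis) of the 7 factors (x axis) on each array, with differentiating arrays left of proliferating ones; lines are means (n = 2 and n = 4), circles arrays with KO in Cy5 and squares arrays with KO in Cy3. Sox10 lies between 1.73 and 2.76 on all 6 arrays, Nkx6-2 spreads from -0.30 to 2.79 in proliferating cells, and Olig2 lies below 0 on both differentiating arrays.

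Sox10, the SoxE factor that switches on myelin genes, had the highest mean ratio of the 7 factors in proliferating cells. At its brightest probe (A_51_P346704; chromosome 15, 79238027 to 79238086, minus strand, build mm7) its levels were 12.84 and 12.88 in differentiating KO cells, against 10.69 and 10.65 in differentiating WT cells. In proliferating cells they were 11.47, 11.22, 10.49 and 12.44 in KO and 8.71, 9.50, 7.77 and 9.82 in WT. Every KO channel of a condition lay above every WT channel of it. By mean level, differentiating KO cells came first, then proliferating KO, differentiating WT and proliferating WT cells; of neighbours in that order, the ranges of proliferating KO and differentiating WT cells overlapped. The log2 ratios were 2.15 and 2.23 in differentiating cells, with a mean of 2.19 ± 0.06 (SD, n = 2), or 4.56-fold (limma, adjusted p = 0.0170). They were 2.76, 1.73, 2.72 and 2.63 in proliferating cells, with a mean of 2.46 ± 0.49 (SD, n = 4), or 5.50-fold (adjusted p = 0.0124; higher on 4 of 4 arrays). The proliferating call ended without proliferating replicate 3 (2.43, limma, adjusted p = 0.0532) and with proliferating arrays fitted alone (2.46, adjusted p = 0.0835). In the latter fit 0 of all genes passed, and leaving out either differentiating array gives the same fit for proliferating cells. Adjusted p ranged from 0.00417 to 0.0835 over the 16 alternatives. With the mean of all probes the proliferating ratio was 1.73. With 1 differentiating array left out, the differentiating ratio was 1.95 without replicate 1 and 2.43 without replicate 2 (adjusted p = 0.367 and 0.256), the lone array being assumed to vary like the others.

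A second Sox10 probe (A_52_P192625; chromosome 15, 79239405 to 79239464, minus strand, build mm7) was dimmer and pointed the same way. Its signal was well above background in both differentiating KO channels and in 3 of 4 proliferating KO channels, but in 0 WT channels of either condition. Mean KO signal was 2.55-fold higher in differentiating cells and 1.99-fold higher in proliferating cells. Each ratio sets the KO mean against, per array, the higher of the lowest signal well above background and the WT signal of that probe. The WT signal of the probe was the higher here, so both ratios equal those of the measured means. They are not lower limits for each array. The log2 ratios of that probe, 1.29 and 1.41 in differentiating and 0.88, 0.88, 0.51 and 1.71 in proliferating cells, were all above 0.

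Sox9 acts in the central nervous system in stem cells, in the start of gliogenesis and in astrocytes. Its ratios were below 0 on all 6 arrays, but it passed no test between KO and WT in the main fit. At the probe with the most signal (A_52_P577484; chromosome 11, 112894739 to 112894798, plus strand, build mm7) its levels were 12.79 and 13.25 in differentiating KO cells, against 13.58 and 14.14 in differentiating WT cells. In proliferating cells they were 12.51, 12.16, 11.75 and 12.89 in KO and 12.64, 13.09, 12.15 and 13.60 in WT. The differentiating KO and WT levels did not overlap, and the proliferating ones did. The log2 ratios were -0.79 and -0.89 in differentiating cells, with a mean of -0.84 ± 0.07 (SD, n = 2; limma, adjusted p = 0.0619). They were -0.13, -0.93, -0.40 and -0.70 in proliferating cells, with a mean of -0.54 ± 0.35 (SD, n = 4; adjusted p = 0.116). In proliferating cells the values nearer to 0 were those of the 2 arrays with KO in Cy5, replicates 1 and 3. The differentiating change passed when arrays were weighted, when that condition was fitted alone and when all probes were averaged (-0.84, -0.84 and -0.57; adjusted p = 0.0125, 0.00935 and 0.0426), within a range of 0.00935 to 0.505 over 16 alternatives. By mean level, differentiating WT cells came first, then differentiating KO, proliferating WT and proliferating KO cells, and of neighbours in that order only the first pair had ranges that did not overlap.

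Sox9 offers a view of spot error, since probe A_52_P214630 (chromosome 11, 112896540 to 112896599, plus strand, build mm7) was printed as 10 spots per array, of which 8 to 10 were kept. The SD between spots of one array was 0.061 to 0.135 on the log2 scale. The array means of that probe ran from -0.93 to -0.17, wider than the spots of any one array, but they followed dye and condition. In proliferating cells they were -0.17 and -0.23 with KO in Cy5, and -0.59 and -0.62 with KO in Cy3. In differentiating cells they were -0.51 with KO in Cy5 and -0.93 with KO in Cy3. Arrays of the same condition and dye thus lay close together, where there was more than 1. Another probe (A_51_P451606), with much less signal, had ratios between -0.21 and 0.07.

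Sox8, which shares myelin gene targets with Sox10, did not pass in either condition. At probe A_52_P269672 (chromosome 17, 23749058 to 23749117, minus strand, build mm7) its levels were 10.97 and 11.11 in differentiating KO cells, against 10.89 and 11.22 in differentiating WT cells. Proliferating cells had 11.31, 10.92, 10.16 and 11.77 in KO and 11.56, 11.54, 11.01 and 11.58 in WT. KO and WT ranges overlapped in both conditions, and by mean level no neighbours among the 4 groups were apart. The mean log2 ratio was -0.02 ± 0.13 in differentiating cells (SD, n = 2; limma, adjusted p = 0.984; 95% interval -0.60 to 0.55). It was -0.39 ± 0.46 in proliferating cells (SD, n = 4; adjusted p = 0.334; interval -0.79 to 0.02), below 0 on 3 of 4 arrays. The other Sox8 probe gave -0.07 ± 0.14 and -0.43 ± 0.50.

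Olig2, the factor that specifies oligodendrocyte precursors, did not follow Sox10. At probe A_52_P223626 (chromosome 16, 91278126 to 91278185, plus strand, build mm7) its levels were 12.24 and 12.01 in differentiating KO cells, against 12.90 and 12.76 in differentiating WT cells. In proliferating cells they were 13.37, 13.63, 13.53 and 13.72 in KO and 13.79, 13.50, 14.08 and 13.36 in WT. KO lay below WT in differentiating cells without overlap, and the proliferating ranges overlapped. The log2 ratios were -0.66 and -0.75 in differentiating cells, with a mean of -0.70 ± 0.06 (SD, n = 2; limma, adjusted p = 0.0777). The mean in proliferating cells was -0.12 ± 0.43 (SD, n = 4; adjusted p = 0.664; 95% interval -0.38 to 0.15). The proliferating ratios followed the dye: they were -0.41 and -0.55 on the arrays with KO in Cy5 and 0.13 and 0.36 on those with KO in Cy3, and the second Olig2 probe had the same signs (-0.27 and -0.66 against 0.73 and 0.46). In differentiating cells that second, dimmer probe gave -0.17 ± 0.07. The differentiating change passed when arrays were weighted and when that condition was fitted alone (-0.70 in both; adjusted p = 0.0209 and 0.0182), within a range of 0.0182 to 0.824 over 16 alternatives.

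Olig1, the neighbour of Olig2 on chromosome 16 with a role in myelin maturation, had its levels at 13.78 and 13.99 in differentiating KO cells, against 14.36 and 14.10 in differentiating WT cells (probe A_52_P603038; chromosome 16, 91321455 to 91321514, plus strand, build mm7). Proliferating cells had 15.00, 14.92, 15.13 and 15.12 in KO and 14.92, 14.77, 15.66 and 14.40 in WT. The proliferating WT levels were spread over more than the proliferating KO levels, which lay inside them. The mean log2 ratio was -0.34 ± 0.33 in differentiating cells (SD, n = 2; limma, adjusted p = 0.623; 95% interval -1.03 to 0.35). It was 0.10 ± 0.51 in proliferating cells (SD, n = 4; adjusted p = 0.868; interval -0.39 to 0.59). By mean level, the order for Olig1 was proliferating KO, proliferating WT, differentiating WT and differentiating KO cells, where only the proliferating pair overlapped. For Olig2 it was proliferating WT, proliferating KO, differentiating WT and differentiating KO cells, and there too only the proliferating pair overlapped.

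Nkx2-2, a homeodomain factor that marks precursors about to mature, was higher in KO on every array. At probe A_51_P197718 (chromosome 2, 146924275 to 146924333, minus strand, build mm7) its levels were 11.76 and 11.85 in differentiating KO cells, against 9.79 and 10.03 in differentiating WT cells. In proliferating cells they were 10.28, 11.60, 11.00 and 11.10 in KO and 9.33, 9.60, 8.69 and 8.56 in WT. By mean level the 4 groups ran from differentiating KO through proliferating KO and differentiating WT to proliferating WT cells, and no 2 neighbours overlapped. The log2 ratios were 1.97 and 1.82 in differentiating cells, with a mean of 1.89 ± 0.11 (SD, n = 2; limma, adjusted p = 0.0516), which missed the threshold. They were 0.94, 1.99, 2.30 and 2.54 in proliferating cells, with a mean of 1.95 ± 0.70 (SD, n = 4), or 3.85-fold (adjusted p = 0.0358; higher on 4 of 4 arrays).

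The Nkx2-2 calls did not hold in every fit, while the ratios stayed above 0. The proliferating call ended without proliferating replicate 2, 3 or 4 (2.03, 1.69 and 1.79, limma, adjusted p = 0.128, 0.0755 and 0.132). It ended with no filter on dim probes (1.95, adjusted p = 0.0689) and with proliferating arrays fitted alone (1.95, adjusted p = 0.142). In the last of these fits 0 of all genes passed. Leaving out either differentiating array gives that same fit for proliferating cells, so these alternatives are not separate. Adjusted p ranged from 0.0172 to 0.142 over the 16 alternatives. The differentiating change passed under 8 of 16 alternatives, among them without proliferating replicate 1 (adjusted p = 0.0252) or 3 (0.0378), over a range of 0.000455 to 0.545.

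Nkx6-2, a homeodomain factor of maturing oligodendrocytes that organises the myelin around axons, had the widest spread of KO over WT ratios among the 7 factors in proliferating cells. At probe A_51_P402617 (chromosome 7, 135995018 to 135995077, minus strand, build mm7) its levels were 13.43 and 12.47 in differentiating KO cells, against 11.25 and 10.25 in differentiating WT cells. Proliferating cells had 8.93, 9.71, 7.53 and 10.25 in KO and 8.61, 8.94, 7.83 and 7.46 in WT. Differentiating KO and WT levels did not overlap, although the 2 arrays differed by about as much in both genotypes, and the proliferating ranges did overlap. The log2 ratios were 2.19 and 2.22 in differentiating cells, with a mean of 2.20 ± 0.02 (SD, n = 2; limma, adjusted p = 0.113). They were 0.32, 0.77, -0.30 and 2.79 in proliferating cells, with a mean of 0.89 ± 1.34 (SD, n = 4; adjusted p = 0.346; 95% interval -0.08 to 1.87). Replicate 4 alone lay far above 0 there, and both conditions share 1 estimate of the spread: without proliferating replicate 4 the differentiating ratio passed (2.20, adjusted p = 0.0319), as it did in 4 of 16 alternatives, over a range of 0.000303 to 0.746. By mean level, differentiating KO cells came first, then differentiating WT, proliferating KO and proliferating WT cells; the proliferating pair overlapped, and the lowest differentiating WT level equalled the highest proliferating KO level at 2 decimals.

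**Figure D2:**
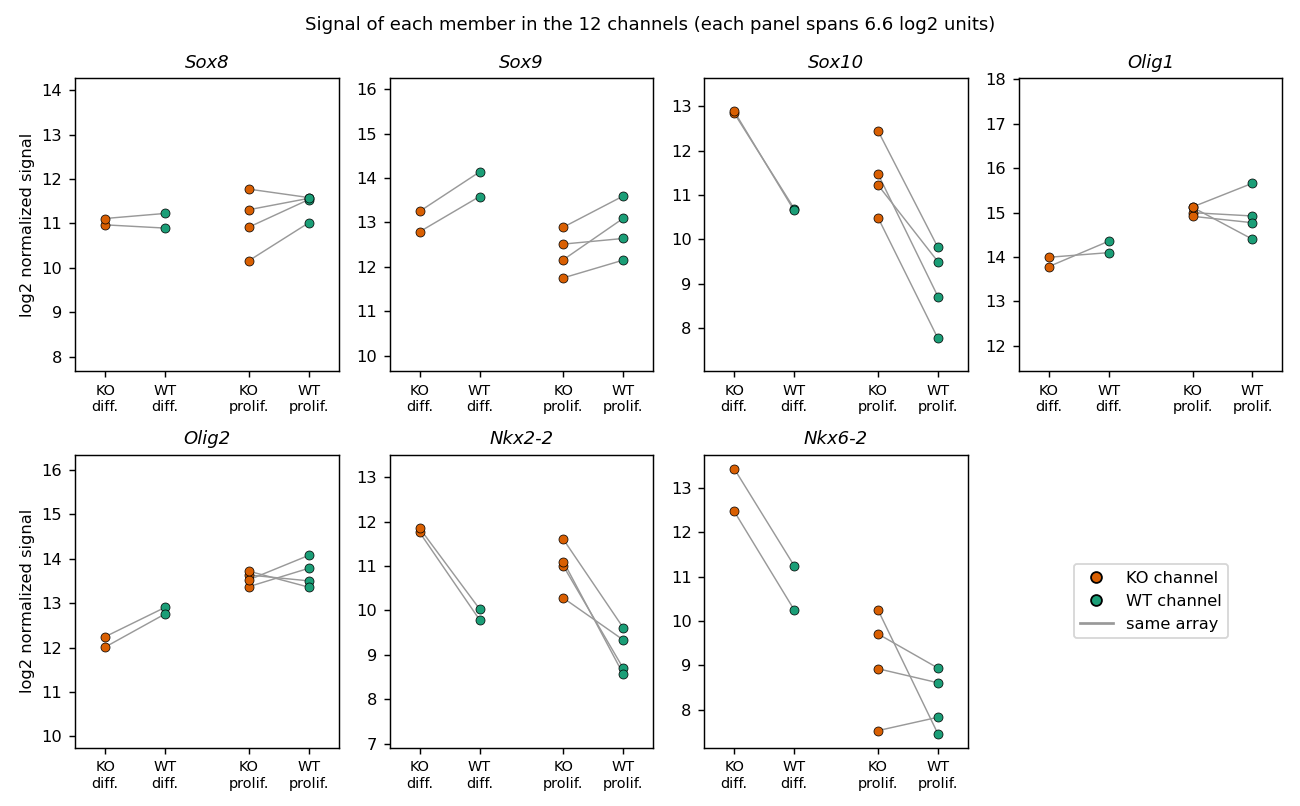
Log2 normalized signal (y axis) of the 7 factors, a panel each, in the 12 channels: KO left of WT, differentiating left of proliferating, with lines joining the 2 channels of an array. Lines for Sox10 and Nkx2-2 slope down from KO to WT on all 6 arrays, and the Olig1 and Olig2 signals are lower in differentiating than in proliferating cells.

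KO and WT channel levels did not overlap for 6 of the 7 factors in differentiating cells, all but Sox8, and for 2 of 7 in proliferating cells, Sox10 and Nkx2-2. Levels of 32.4% of all genes did not overlap in differentiating cells, where each group has 2 channels, and of 2.45% in proliferating cells.

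Whether the KO effect differed between differentiating and proliferating cells was tested as the difference of the ratios. For 0 of the 7 factors did it pass in limma, where 0.0498% of all genes did, and 1 of 7 had an unadjusted p under 0.05, as did 2178 of all 18062 genes, a share close to that of the factors. For Olig2 the difference, differentiating minus proliferating, was -0.59 (unadjusted p = 0.0208, adjusted p = 0.306). The difference was 1.31 for Nkx6-2 (adjusted p = 0.531; 95% interval -0.38 to 3.00), the largest of the 7 in size and the least precise. It was -0.27 for Sox10 (adjusted p = 0.782; interval -0.95 to 0.42) and -0.05 for Nkx2-2 (adjusted p = 0.983; interval -1.07 to 0.96). That the Nkx2-2 ratio passed only in proliferating cells thus does not show a difference between conditions.

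**Figure D3:**
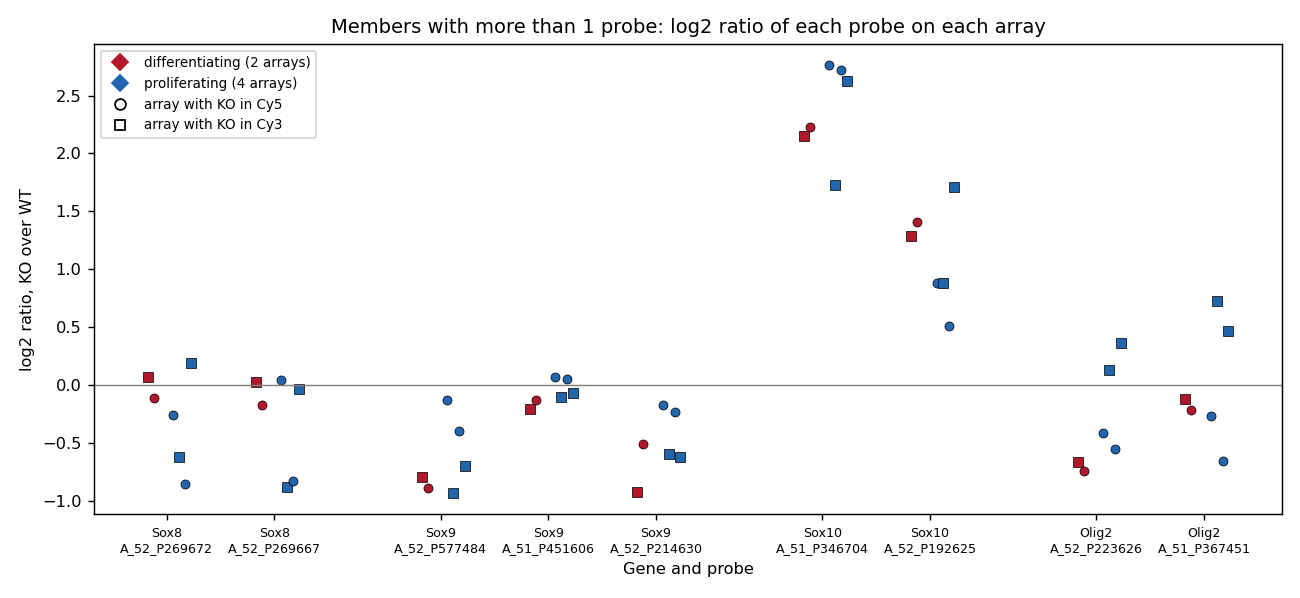
Log2 KO over WT ratio (y axis) of each probe of the 4 factors with more than 1 probe (x axis) on each array; differentiating arrays stand left of proliferating ones, circles mark KO in Cy5 and squares KO in Cy3. Both Sox10 probes lie above 0 on all 6 arrays, and the dim Sox9 probe A_51_P451606 stays between -0.21 and 0.07 while the other Sox9 probes lie below 0.

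Withdrawal of mitogen was examined within each genotype, from the separate channels. In KO cells Olig2 fell by 1.44 on the log2 scale (limma, adjusted p = 0.00451) and Nkx6-2 rose by 3.85 (adjusted p = 0.0179), so 2 of 7 factors passed. Of all genes 15.2% passed there, 9.14% higher and 6.09% lower in differentiating cells. In WT cells Olig2 fell by 0.85 (adjusted p = 0.0288) and was the 1 factor of 7 that passed, against 14.9% of all genes and 5.89% in the lower direction. The levels behind these changes are those given above, where each differentiating Olig2 channel lay below each proliferating channel of the same genotype. Among the changes that did not pass, Nkx6-2 was 2.54 higher in differentiating than in proliferating WT cells (adjusted p = 0.0701). Sox10 was 1.45 higher in KO cells (adjusted p = 0.0839) and 1.72 higher in WT cells (adjusted p = 0.0512). Sox9 was 0.69 higher in KO cells (adjusted p = 0.211) and 0.99 higher in WT cells (adjusted p = 0.0919). Olig1 was 1.15 lower in KO cells (log2 change -1.15, adjusted p = 0.0778) and 0.71 lower in WT cells (-0.71, adjusted p = 0.250). Nkx2-2 was 0.81 higher in KO cells and 0.86 higher in WT cells (adjusted p = 0.279 and 0.257), and Sox8 was at 0.00 and -0.36 (adjusted p = 1.00 and 0.565).

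The calls on withdrawal rested on few arrays. In KO cells the Olig2 change no longer passed without proliferating replicate 1 (-1.46, adjusted p = 0.0546; range over 12 alternatives 0.00226 to 0.0546). The Nkx6-2 change did not pass without proliferating replicate 1, 2 or 3 or either differentiating array (3.39 to 3.92; adjusted p = 0.120, 0.0774, 0.0727, 0.118 and 0.133; range 0.00175 to 0.133). In WT cells the Olig2 change did not pass without proliferating replicate 1, 2 or 3 or either differentiating array (-1.11 to -0.60; adjusted p = 0.150, 0.138, 0.102, 0.0676 and 0.176; range 0.0151 to 0.176). Without proliferating replicate 4, changes of Sox10 passed in KO (1.85, adjusted p = 0.0136) and in WT cells (1.96, adjusted p = 0.0131), as did those of Nkx6-2 (2.32, adjusted p = 0.0226) and Sox9 (1.20, adjusted p = 0.0337) in WT cells and of Olig1 in KO cells (-1.13, adjusted p = 0.0407).

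How alike the factors were over the 12 channels of the 6 arrays was described by Pearson correlations of log2 levels. Channels share arrays and cultures, and conditions and genotypes set much of the spread. Olig1 and Olig2 followed each other most closely (r = 0.918), and Sox10 followed Nkx2-2 (0.858) and Nkx6-2 (0.755). The values were below 0 between these pairs: -0.688 for Olig2 with Sox10 and -0.825 for Olig2 with Nkx6-2. Sox8 had no correlation above 0.466, its value with Sox9. Outside the factors, the genes whose levels were most like Sox10 included Dpysl4 (0.939) and Dock9 (0.936). The genes most like Nkx6-2 were Itgb7 (0.952), Cyfip2 (0.949) and Fa2h (0.940), an enzyme that makes hydroxylated fatty acids for myelin lipids. Those most like Nkx2-2 were Matn4 (0.942), Chchd10 (0.940) and 1700060H10Rik (0.938). For Olig1 they were Dglucy (0.920), Lpar6 (0.916) and Fbf1 (0.915), and Lpar6 was also among the 3 most like Olig2 (0.936), after the transcripts ENSMUST00000092045 (0.941) and LOC629581 (0.938). For Sox9 they were Ndrg3 (0.949), AK003987 (0.948) and Pick1 (0.943), and for Sox8 Coasy (0.934), Arhgef10l (0.916) and Dcaf8 (0.916).

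Of the 6 gene lists examined, the genes that the factors are known to act on had the highest median ratio in both conditions. The lists were chosen with earlier results of these data known, so this rank is a description only. The astrocyte markers, read apart from these lists, had medians of 2.03 in differentiating and 0.45 in proliferating cells. Of 17 lineage target genes tested, 7 rose and 0 fell in differentiating cells, with a median log2 ratio of 2.06, beside -0.007 over all genes. Cnp, an enzyme of myelin cytoplasm, had a ratio of 2.20 ± 0.05 (SD, n = 2; limma, adjusted p = 0.0108). Mal, a membrane protein of the myelin sheath, had 2.06 ± 0.25 (adjusted p = 0.0108), and Mobp, a protein of compact myelin, had 3.06 ± 0.07 (adjusted p = 0.0129), with WT signal well above background on 1 of 2 arrays for both. Cldn11, a tight junction protein of myelin, had 3.36 ± 0.77 (adjusted p = 0.0197). None of these 4 calls held with 1 differentiating array left out (adjusted p = 0.189 to 0.258), with the ratios then between 1.88 and 4.36. With Agilent's processed signals the ratio of Mal was 3.66 and that of Mobp 4.87, and with the mean of all probes that of Mobp was 1.85. The other 3 that rose were Erbb3, Mag and Bcas1.

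In proliferating cells 2 of the 17 target genes rose, with a median of 0.75, and 16 of 17 ratios were above 0. Gpr17, a receptor of precursors that start to differentiate, had log2 ratios of 2.08, 1.94, 2.61 and 2.76, with a mean of 2.35 ± 0.40 (SD, n = 4; limma, adjusted p = 0.0129). Bcas1, which marks early myelinating cells, had 1.49, 2.22, 1.03 and 3.52, with a mean of 2.07 ± 1.08 (adjusted p = 0.0462). All 8 values lay above 0. The Gpr17 call ended without proliferating replicate 3 or 4 or either differentiating array (adjusted p = 0.0532, 0.0579 and 0.0835) and with proliferating arrays fitted alone (0.0835). With the mean of all probes the Gpr17 ratio was 1.17. For Gpr17 and Bcas1 alike, leaving out a differentiating array gave the same fit as proliferating arrays alone, where 0 of all genes passed. The Bcas1 call ended under 11 of 16 alternatives: without any 1 of the 6 arrays (adjusted p = 0.0701 to 0.127), with no filter on dim probes (0.0833), the mean of all probes (0.0505), no dye term (0.0524), array weights (0.0623) and proliferating arrays fitted alone (0.122).

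Few regulators outside the 7 factors passed. Of 20 other regulators that promote the lineage, 2 rose and 0 fell in differentiating cells, with a median log2 ratio of 0.01, and 0 passed in proliferating cells, where the median was 0.05. Hdac1, a histone deacetylase needed in the lineage, had 0.90 ± 0.31 in differentiating cells (SD, n = 2; limma, adjusted p = 0.0245). St18, a zinc finger factor, was 1.71-fold higher in KO by mean signal (limma, adjusted p = 0.0410). Its WT signal was not well above background on either differentiating array. Myrf, the factor that acts with Sox10 in mature cells, had ratios of -0.00 in differentiating and 0.01 in proliferating cells (adjusted p = 0.993 and 0.980). Of 14 regulators that hold the lineage back, 0 passed in either condition. Their median was -0.31 in differentiating and -0.35 in proliferating cells, where 13 of 14 ratios were below 0. Pax6, a factor of neurogenic cells, came nearest in proliferating cells, at -0.47, -1.65, -1.61 and -2.27, with a mean of -1.50 (adjusted p = 0.0503). The St18 call ended without any array but proliferating replicate 2 (adjusted p = 0.0563 to 0.415), without proliferating replicates 3 and 4 together (0.0546) and with median centring (0.156), and its log2 ratio was 2.18 with Agilent's processed signals. The Hdac1 call ended without either differentiating array (0.441 and 0.312), with median centring (0.0903) and with no dye term (0.0508).

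Hedgehog ligands, receptors and Gli factors, which switch on Olig and Nkx2-2 genes in the ventral neural tube, changed in single members. In differentiating cells 1 of 14 rose, the hedgehog-binding inhibitor Hhip, 1.63-fold higher in KO by mean signal (limma, adjusted p = 0.0434). Its WT signal was not well above background on either array. In proliferating cells 1 of 14 rose, the ligand Dhh, with log2 ratios of 3.03, 4.26, 4.78 and 2.49 and a mean of 3.64 ± 1.06 (SD, n = 4; adjusted p = 0.0276). Gli1 and Ptch1, also of this list, had ratios of -0.06 and -0.69 in differentiating cells (limma, adjusted p = 0.805 and 0.112). They had 0.04 and -0.17 in proliferating cells (adjusted p = 0.829 and 0.578). The median of the 14 was -0.06 in differentiating and 0.02 in proliferating cells. The Dhh call ended without proliferating replicate 2, 3 or 4 or either differentiating array (adjusted p = 0.107, 0.0582, 0.0598 and 0.122), with proliferating arrays fitted alone (0.122) and with no filter on dim probes (0.0578). The Hhip call ended without any array but proliferating replicate 1 (adjusted p = 0.0643 to 0.615), without proliferating replicates 3 and 4 together (0.0615), with median centring (0.116) and with the mean of all probes (0.0536), and its log2 ratio was 2.43 with Agilent's processed signals.

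Other members of the Sox, Olig and Nkx families passed no test between KO and WT. Of the 25 in that list, which leaves out Sox4, Sox6 and Sox11 as regulators that hold the lineage back, 15 were tested and 0 passed in either condition, with medians of -0.01 in differentiating and -0.02 in proliferating cells. Sox21 had a ratio of -0.34 in differentiating cells (limma, adjusted p = 0.347) and -0.66 in proliferating cells (adjusted p = 0.0742). Sox11, of the restraining list, had -1.03 in differentiating cells (adjusted p = 0.0659). Of 7 genes that SoxE factors switch on in cartilage or astrocytes, 0 passed in differentiating cells and 1 rose in proliferating cells. It was the cartilage collagen Col9a1, with log2 ratios of 0.49, 1.54, 0.59 and 1.67 and a mean of 1.07 ± 0.62 (SD, n = 4; adjusted p = 0.0197). The Col9a1 call ended without proliferating replicate 2, 3 or 4 or either differentiating array (adjusted p = 0.0957, 0.0659, 0.0871 and 0.0795), without proliferating replicates 3 and 4 together (0.0630), with proliferating arrays fitted alone (0.0795) and with no dye term (0.0873). Its ratio was 1.80 with Agilent's processed signals.

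**Figure D4:**
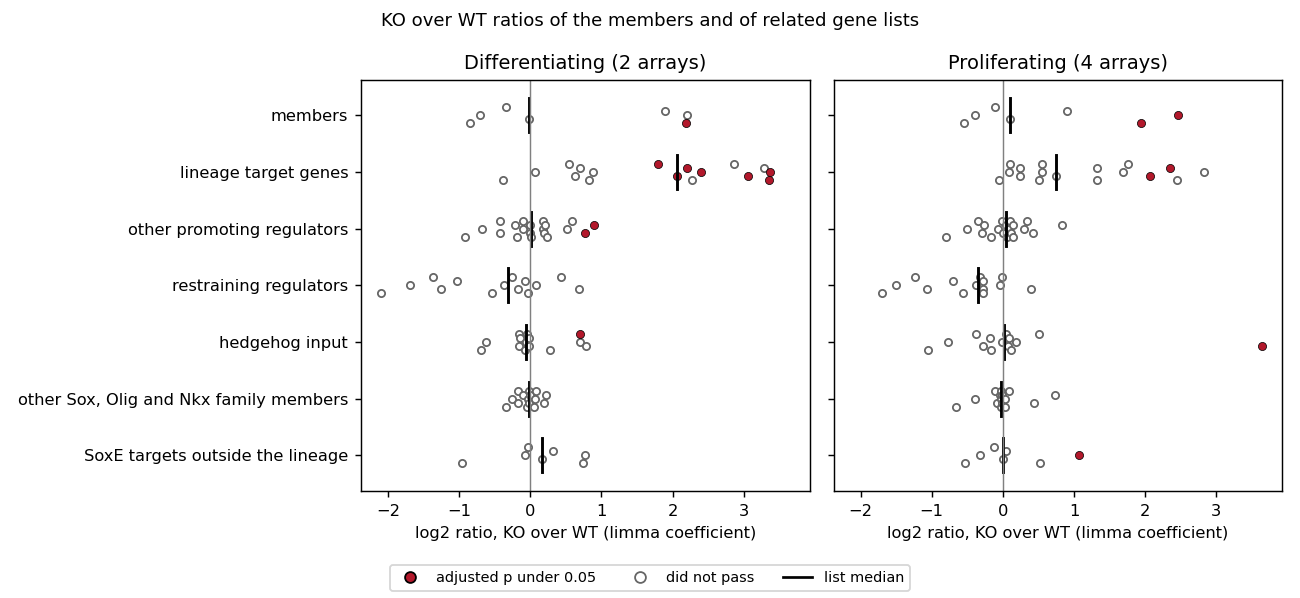
Log2 KO over WT ratios (x axis, limma coefficients) of the 7 factors and of 6 gene lists (y axis) in differentiating cells (left) and proliferating cells (right); filled points have an adjusted p under 0.05, open points did not pass, and a bar marks the median of each list. The lineage target genes lie furthest to the right, with medians of 2.06 and 0.75.

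Sox10 is also used by neural crest and Schwann cells, and markers of these and other cells were read beside it. Of 8 neural crest and Schwann cell markers, 0 passed between KO and WT in either condition. Between 5 and 7 of them were well above background in proliferating channels and 7 in differentiating channels of each genotype. Their mean log2 level was 7.87 and 7.25 in differentiating KO channels, against 7.59 and 7.15 in the WT channels of the same arrays. On the proliferating arrays it was 7.12, 7.04, 7.02 and 7.18 in KO, against 7.19, 7.06, 6.95 and 7.29 in WT. Of the 8 ratios 4 were above 0 in differentiating and 2 in proliferating cells. The 7 markers in differentiating channels were all but Cdh19, which was well above background in 0 of 4 differentiating and 2 of 8 proliferating channels. All 5 microglia markers were well above background in 0 channels. Of the markers of endothelial and mural cells (5), fibroblasts and meninges (4) and ependymal cells (3), at most 3, 2 and 1 were well above background in a channel. In differentiating cells their mean levels were 7.20 to 7.23, 6.74 to 6.94 and 7.43 to 7.77 in KO, against 6.85 to 6.87, 6.29 to 6.43 and 7.10 to 7.27 in WT channels, so KO lay above WT for all 3 lists. Among them 1 gene passed, the ependymal marker Foxj1 (log2 ratio 1.27 in differentiating cells, limma, adjusted p = 0.0493).

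Neuron and astrocyte markers also differed between KO and WT in differentiating cells, though only 1 astrocyte marker passed. Of 6 neuron markers 5 fell in KO, and their mean level was 9.26 to 9.28 in KO and 10.7 to 10.9 in WT channels. Of 5 astrocyte markers 1 rose, the water channel Aqp4 (log2 ratio 2.91, limma, adjusted p = 0.00771), and their mean level was 12.7 to 13.3 in KO and 11.2 to 11.7 in WT channels. Among the 5 ratios 4 were above 0, with a median of 2.03. Gfap (2.47 and 2.80) and S100b (1.98 and 2.07) were higher on both arrays but did not pass. In proliferating cells 0 of these 11 markers passed, and levels of the neuron markers were 8.21 to 8.84 in KO and 8.04 to 8.80 in WT channels. The mean level of the astrocyte markers there was 10.4, 10.3, 10.3 and 11.9 in KO and 10.4, 9.81, 9.22 and 11.2 in WT channels, and it was higher in KO on all 4 arrays. The part of these and the other cell types in the changes of the factors was not tested.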

How the data were processed

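Per the file headers, the deposited spot intensity values (mean signal and local background per dye) came from Agilent Feature Extraction, version 9.5.1.1, on design 014868. The authors' deposited log10 ratios equal the scanner ratios turned to KO over WT; any further centring was not given in the sources used here. Mean signals were corrected by normexp (offset 50) and loess in limma 3.58.1 (R 4.3.3), leaving out 1639 control spots per array and 859 outlier spots. Probes were named through accessions where these matched (22951 of 41174), and the brightest probe stood for a gene. Genes well above background in a channel on at least 2 arrays were tested with lmFit and eBayes in a model holding the 2 KO/WT effects and a dye bias. Withdrawal used limma's separate-channel fit after Aquantile (intraspot correlation 0.764, 18050 genes). P-values were adjusted by Benjamini-Hochberg over all genes, 2-sided, with a threshold of 0.05. Fits were tested on simulated data. The number of arrays limits the precision.

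The members and the lists were chosen with earlier results of these data known. Named were the 7 members, Dnmt3a, up to 4 genes of smallest p per list and comparison that passed, and the 3 genes most like each member (SD at least 0.5 times its own), except some that are not reported here. Eif2s3y, Xist, Myrf, Pax6, Gli1, Ptch1, Sox21, Sox11, Prom1, Foxj1, Aqp4 and Cdh19 were chosen after their values were seen. So were, in differentiating cells, Erbb3, Mag and Bcas1. Alternatives changed the background correction, normalization, filter, probe rule, weights, dye term, block and arrays.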

Additional observations from a re-analysis of the deposited data

Results flagged for a closer look

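Within groups of 4 arrays or channels, the value furthest from the others was set against Dixon's critical value for 4 values, and 6 of 66 groups exceeded it; chance alone exceeds it in about 1 in 20. For Sox10, proliferating replicate 2 had a log2 KO over WT ratio of 1.73, below the other 3 arrays, which lay between 2.63 and 2.76. For the Sox8 probe A_52_P269672, the WT level of proliferating replicate 3 was 11.01, below 11.54 to 11.58 on the others. For the dim Dnmt3a probe A_52_P169048, the WT level of proliferating replicate 4 was 6.61, below 6.92 to 6.96. Among genes of the lists in proliferating cells, Aqp4 had a ratio of 0.74 on replicate 2, Erbb3 one of 1.37 on replicate 4 and Snap25, a neuron marker, one of -0.70 on replicate 1.

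In the main fit the KO effect on the astrocyte marker Aqp4 differed between conditions. The difference of the log2 ratios, differentiating minus proliferating, was 2.46 (limma, adjusted p = 0.0395). The ratios were 2.84 and 2.99 in differentiating cells and 0.33 to 0.74 in proliferating cells. This call ended with median centring, with no filter on dim probes and without proliferating replicates 3 and 4. It also ended with any 1 proliferating array left out, and 0 of all genes passed in each of these fits. Leaving out either differentiating array, which leaves 1 array of that condition, ended the call as well.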

How the results depend on the processing

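No direction of a called factor reversed under any alternative run. Of 7 factors, 2 passed in proliferating cells in the main fit, 1 with no filter on dim probes and 0 with proliferating arrays fitted alone. In the last of these fits 0 of all genes passed. For proliferating cells, leaving out either differentiating array gives that same fit for every gene, so these alternatives are not separate. In differentiating cells 1 passed; 2 passed under the stricter filter, with the mean of all probes or with no dye term, 5 with array weights or with differentiating arrays fitted alone (without a dye term), and 3 without proliferating replicates 3 and 4. On withdrawal in WT cells 1 passed, and 2 with the mean of all probes or no dye term. Leaving out 1 array at a time, the factors that passed numbered 0 to 2 in differentiating and 0 to 2 in proliferating cells, and 0 to 4 on withdrawal in KO and 0 to 4 in WT cells. For the difference of the KO effects 0 factors passed under all 15 alternatives. The slide as a block could not be run, since each slide held 1 condition. The cause of these changes was not tested.

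Over all genes, 172 passed in proliferating cells, 278 with Agilent's processed signals, 101 with no filter and 0 (limma; 2275 at an unadjusted p under 0.05) with that condition fitted alone. In differentiating cells 557 passed, 285 with median centring, 2112 with array weights, 1586 with that condition fitted alone and 970 without proliferating replicates 3 and 4. For the difference 9 passed, 72 with processed signals, 24 with no dye term, 153 with array weights, 4 under the stricter filter, 4 with the mean of all probes, and 0 with median centring, with no filter and without proliferating replicates 3 and 4 (1582, 2865 and 2125 at an unadjusted p under 0.05). With 1 array left out, the counts were 0 to 534 in differentiating cells, 0 to 171 in proliferating cells, 0 for the difference (920 to 2590 at an unadjusted p under 0.05), 230 to 4724 on withdrawal in KO cells and 200 to 3824 in WT cells.

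With the replicate block (numbers 1 and 2 shared by both conditions, block correlation 0.0523), 2 factors passed in differentiating cells, Sox10 and Nkx2-2 (adjusted p = 0.0167 and 0.0489), and 19 genes for the difference; it changed no other call of the factors. Deviations of same-numbered arrays had correlations of -0.369 and -0.288, but same-numbered arrays carried opposite dye orientations and the 2 differentiating deviations mirror each other, so this check cannot show whether they share a culture; the labels give them only a number in common.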
